A study of Mus musculus with 13 samples.

Results

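The genes described here encode 9 secreted proteins of the visceral endoderm and early liver of the mouse: Afp, Ttr, Apoa1, Apoa2, Apob, Rbp4, Trf, Fgb and Fgg. They were taken by gene symbol from a table of 23217 genes, and all 9 were found. The samples were 13 whole embryos of embryonic day 9.5 on a C57BL/6J background, 10 carrying the genotype label xHomo and 3 the label xHet. The series asks what Tet1, an enzyme that oxidizes 5-methylcytosine, does in removing parental imprints. Neither label is spelled out. From knowledge of the study, the embryos had fathers homozygous (xHomo) or heterozygous (xHet) for a Tet1 mutation, and no embryo is labelled wild type. No litter, sex or batch is labelled, and p-values therefore measure only the spread among these embryos.

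The visceral endoderm is the outer epithelium of the early mouse embryo and yolk sac, which takes up maternal nutrients and secretes carrier proteins before a liver exists. Hepatoblasts of the liver bud later switch on the same set, which becomes the plasma protein output of the fetal and adult liver. The 9 genes fall into carriers (alpha-fetoprotein Afp, transthyretin Ttr, retinol binding protein Rbp4 and transferrin, whose mouse symbol is Trf), apolipoproteins (Apoa1, Apoa2 and Apob) and fibrinogen chains (Fgb and Fgg). On mm9, as the table gives them, Trf spans 103111205 to 103132616 and Apoa1 46036712 to 46038549 on chromosome 9, Apoa2 173155184 to 173156510 on chromosome 1, Apob 7984482 to 8023645 on chromosome 12 and Rbp4 38191109 to 38199811 on chromosome 19. In a whole embryo, fewer cells of a type and less RNA per cell cannot be told apart.

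Levels are given in FPKM, which divides fragments by transcript length and by the mapped total of the library, so genes can be compared with each other. The read depth behind them is unknown, and values near or below 1 FPKM are the least certain. Summed FPKM ran from 500126 to 662936 in xHomo embryos and from 543948 to 570161 in xHet embryos. Xist, which coats the inactive X chromosome in females, stood at 30.5 to 158.8 FPKM in xHomo embryos 2, 3, 7, 9 and 10 and at most 0.10 FPKM in the other xHomo and all xHet embryos. The library of xHomo embryo 3 stood apart: over 12755 genes with a mean of at least 1 FPKM its median difference from the xHet mean in log2(FPKM + 1) was -0.27, against -0.0035 to 0.17 in the other xHomo embryos and -0.02 to 0.05 in the xHet embryos. Results that rest on this embryo are given with and without it.

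Afp was the most abundant of the 9 and encodes the main serum carrier of the fetus (chromosome 5, 90919739 to 90937933 on mm9, as the table gives it). In xHomo embryos it ran from 7.22 FPKM in embryo 3 to 54.57 FPKM in embryo 5, with a median of 30.1 FPKM. In xHet embryos 1 to 3 it was 33.0, 26.2 and 22.57 FPKM. The xHet values thus lay inside the range of the xHomo embryos, of which 2 were below and 4 above all xHet embryos. The next-lowest xHomo embryo had 22.29 FPKM, close to the lowest xHet embryo, so embryo 3 stood by itself. The group means were 30.0 ± 12.0 FPKM (SD, n = 10) in xHomo and 27.3 ± 5.29 FPKM (SD, n = 3) in xHet embryos.

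The stretches before the start sites of Afp, Apoa2, Fgb and Fgg are shown because Afp carried the highest level and Apoa2, Fgb and Fgg were among the genes whose levels correlated between xHomo embryos, as described further on. They are the 250 bases before the RefSeq start on the GRCm38.p6 build, which differs from the mm9 build of the expression table, read 5′ to 3′ on the gene's strand. Capitals mark matches on either strand to motifs of liver and endoderm regulators: CAAAGTC for HNF4, TGTTTAC and TGTTTGC for FOXA proteins and AGATAA for GATA factors. Afp lies on the plus strand at chr5:90490464-90490713, Apoa2 on the plus strand at chr1:171224804-171225053, Fgb on the minus strand at chr3:83049864-83050113 and Fgg on the plus strand at chr3:83007474-83007723.
Afp: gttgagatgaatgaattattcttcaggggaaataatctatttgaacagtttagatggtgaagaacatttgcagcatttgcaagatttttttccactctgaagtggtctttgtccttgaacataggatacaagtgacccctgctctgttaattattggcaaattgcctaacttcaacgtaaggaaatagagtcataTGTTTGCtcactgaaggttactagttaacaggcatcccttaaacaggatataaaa
Apoa2: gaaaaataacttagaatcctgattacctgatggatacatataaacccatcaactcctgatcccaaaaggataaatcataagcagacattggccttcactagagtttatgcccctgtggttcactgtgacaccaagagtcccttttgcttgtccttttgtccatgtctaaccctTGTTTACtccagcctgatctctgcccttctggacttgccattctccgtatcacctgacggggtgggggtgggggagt
Fgb: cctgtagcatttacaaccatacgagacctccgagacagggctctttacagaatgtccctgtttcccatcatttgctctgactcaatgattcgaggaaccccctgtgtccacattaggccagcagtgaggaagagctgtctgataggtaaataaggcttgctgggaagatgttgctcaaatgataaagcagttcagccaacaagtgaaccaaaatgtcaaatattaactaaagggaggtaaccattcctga
Fgg: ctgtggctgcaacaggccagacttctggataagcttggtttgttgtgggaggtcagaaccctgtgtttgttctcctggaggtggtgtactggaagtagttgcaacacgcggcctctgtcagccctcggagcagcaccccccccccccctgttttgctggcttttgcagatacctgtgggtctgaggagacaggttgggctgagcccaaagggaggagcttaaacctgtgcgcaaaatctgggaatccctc
The Afp window held TGTTTGC 55 bases before the start. The Apoa2 window held TGTTTAC 77 bases before it, and a further RefSeq start of Apoa2 had no match. The Fgb and Fgg windows held none of the 4 motifs. Windows of 7 of the 9 genes were matched by symbol, those other than Ttr and Trf. TGTTTAC was found in 2 of the 7 (Apoa2 and Rbp4), against 3.54% of 27025 genes with a window, and TGTTTGC in 3 (Afp, Apoa1 and Apob), against 4.93%. The Rbp4 match lay 241 bases before a RefSeq start, and a further RefSeq start of Rbp4 had no match. CAAAGTC and AGATAA were found in 0 of the 7, against 4.33% and 11.4% of genes. These matches describe letters and do not show binding.

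Ttr encodes the carrier of thyroid hormone that also holds the retinol binding protein in serum. It ran from 1.44 FPKM in xHomo embryo 9 through a median of 3.46 FPKM to 7.88 FPKM in xHomo embryo 5. The xHet embryos had 6.45, 4.76 and 4.10 FPKM. Here 6 of 10 xHomo embryos were below all xHet embryos and 1 was above them. Ttr was low in xHomo embryo 3 too (1.88 FPKM), but it alone of the 9 genes had its lowest value elsewhere, in xHomo embryo 9 (1.44 FPKM).

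Rbp4, which encodes the plasma carrier of retinol, was low together with Ttr in xHomo embryo 3 but differed from it in xHomo embryo 9. Its lowest xHomo value was 2.46 FPKM in embryo 3, its median 8.60 FPKM and its highest 10.24 FPKM in embryo 9, the embryo with the least Ttr. The xHet embryos had 6.09, 8.18 and 6.21 FPKM. Of the xHomo embryos 6 were above and 2 below all xHet embryos.

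Trf encodes the iron carrier that delivers iron to cells through the transferrin receptor. Its lowest xHomo value was 2.47 FPKM (embryo 3), its median 6.26 FPKM and its highest 9.25 FPKM (embryo 4). In xHet embryos 1 to 3 it was 11.26, 6.97 and 9.5 FPKM. No xHomo embryo was above the xHet range, and 7 of 10 were below it. The means were 6.09 ± 1.88 FPKM (SD, n = 10) in xHomo and 9.24 ± 2.16 FPKM (SD, n = 3) in xHet embryos.

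Among the apolipoproteins, Apoa2, a protein of high density lipoprotein, ran in xHomo embryos from 4.37 FPKM (embryo 3) through a median of 10.4 FPKM to 17.52 FPKM (embryo 5). The xHet embryos had 10.91, 7.84 and 6.74 FPKM. Apoa1, the main protein of the same particle, ran from 0.97 FPKM (xHomo embryo 3) through a median of 2.30 FPKM to 4.13 FPKM (xHomo embryo 2), with 1.89, 1.23 and 2.31 FPKM in the xHet embryos. For Apoa1 5 of 10 xHomo embryos and for Apoa2 3 of 10 lay above all xHet embryos, and 1 of 10 lay below for each. Apob, the structural protein of the lipoproteins that the yolk sac exports, was the only one of the 9 below the filter of a mean of 1 FPKM. Its xHomo values ran from 0.05 FPKM (embryo 3) through a median of 0.265 FPKM to 0.46 FPKM (embryo 2), against 0.24, 0.35 and 0.57 FPKM in the xHet embryos. At this level the groups overlapped and no test was made.

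Fgb and Fgg encode the beta and gamma chains of fibrinogen, the clot-forming protein, and are neighbours on chromosome 3 (Fgb 82846226 to 82853712, Fgg 82811817 to 82818971 on mm9). Fgb ran in xHomo embryos from 0.86 FPKM (embryo 3) through a median of 3.50 FPKM to 5.57 FPKM (embryo 5). It was 3.43, 3.29 and 4.02 FPKM in the xHet embryos. Fgg ran from 0.33 FPKM (xHomo embryo 3) through a median of 1.32 FPKM to 1.93 FPKM (xHomo embryo 6), with 1.04, 1.11 and 0.92 FPKM in the xHet embryos. Of the xHomo embryos 4 were below and 2 above all xHet embryos for Fgb, and 2 were below and 5 above for Fgg. The xHomo embryos spread over a 6.48-fold range for Fgb and a 5.85-fold range for Fgg, or 2.57-fold and 2.38-fold without embryo 3. The 3 xHet embryos had a 1.22-fold range for Fgb and a 1.21-fold range for Fgg. A range over fewer embryos tends to be narrower, so these ranges do not compare the spread of the groups. The third chain gene, Fga, lies between them (82830074 to 82837539) and stayed at or below 0.33 FPKM in every embryo, with xHomo embryo 3 listed at 0.

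**Figure D1:**
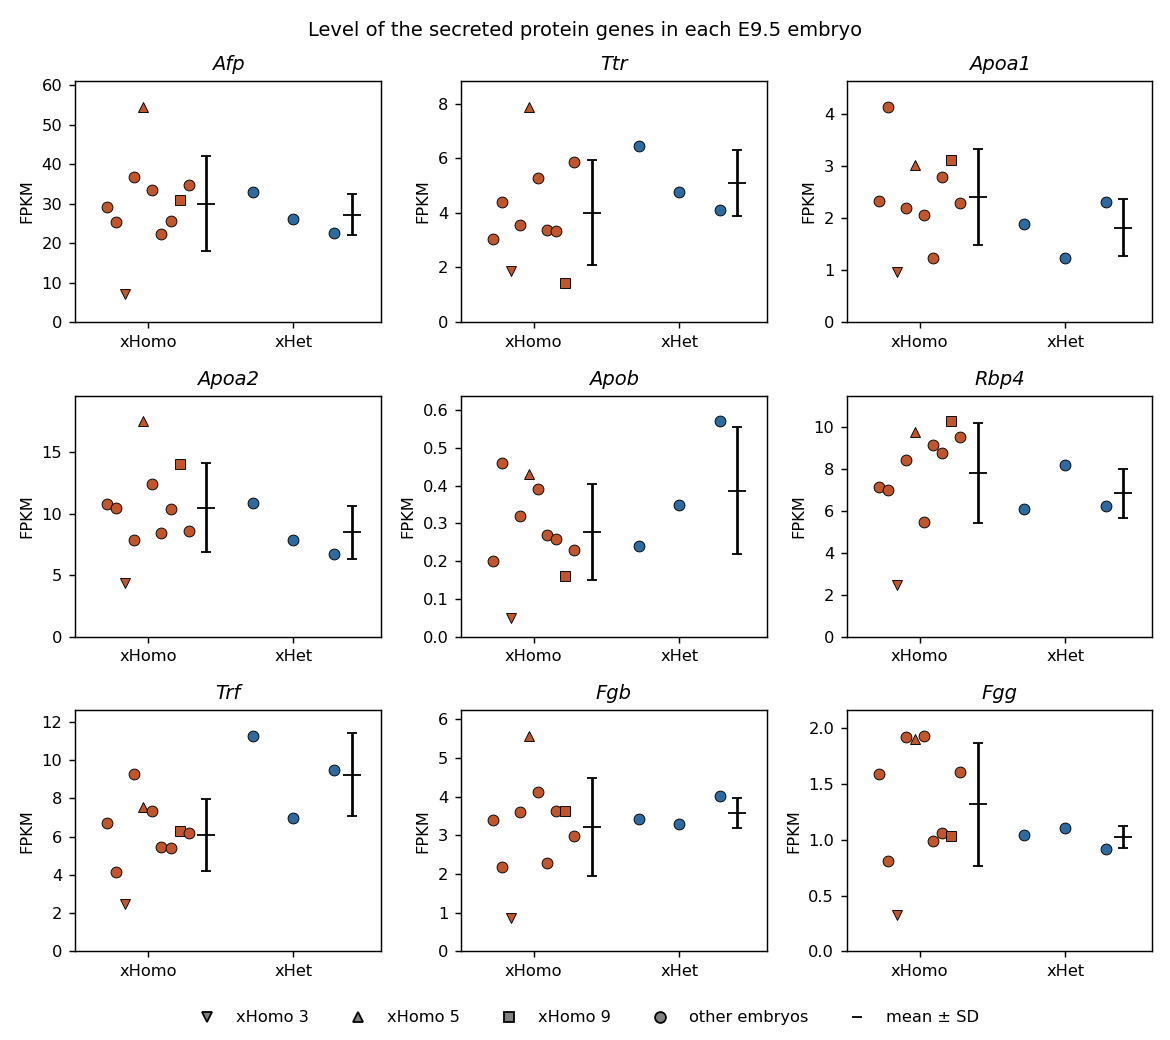
FPKM of each of the 9 genes in 10 xHomo and 3 xHet embryos, 1 point per embryo, with mean ± SD beside each group. xHomo embryo 3 (downward triangle) is the lowest point in 8 panels, xHomo embryo 5 (upward triangle) the highest in 4, and the groups overlap in all 9.

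The order of mean levels in the xHomo embryos was Afp, Apoa2, Rbp4, Trf, Ttr, Fgb, Apoa1, Fgg and Apob, with means of 30.0, 10.5, 7.78, 6.09, 4.01, 3.23, 2.41, 1.32 and 0.277 FPKM. In the xHet embryos Trf took the second place with 9.24 FPKM, ahead of Apoa2 with 8.50 FPKM and Rbp4 with 6.83 FPKM. Afp was above Apoa2 in 10 of 10 xHomo and 3 of 3 xHet embryos. Neighbours in the middle of the order were not separated: Apoa2 was above Rbp4 in 7 of 10 xHomo embryos, Rbp4 above Trf in 7 of 10 and Ttr above Fgb in 6 of 10. Apoa1 was above Fgg, and Fgg above Apob, in every one of the 13 embryos.

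The groups were then compared gene by gene, to ask whether the fathers' genotype went with a change in any of these levels. Of the 8 genes past the filter 0 passed limma at an adjusted p of 0.05, with adjustment over all 12755 genes, of which 3 (0.0235%) passed. Of the 9 genes 0 separated the groups, against 2.24% of tested genes whose groups did not overlap. Differences in log2(FPKM + 1), xHomo minus xHet, were above 0 for 5 of the 8 and below 0 for 3, with a median of 0.07, while over all genes tested 59.7% were above 0 with a median of 0.05. An unadjusted p under 0.05 was found for 1 of the 8 in limma, Trf, against 9.35% of all genes tested. In the exact permutation test it was found for 0 of the 8, against 1196 of all 12755 genes tested.

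Trf had the largest difference of the 8, -0.56 (SE 0.25, 95% interval -1.10 to -0.03), with an unadjusted limma p of 0.0399 and an adjusted p of 0.521. Among all genes tested 1.72% were lower in xHomo embryos at an unadjusted p under 0.05. For Trf the exact permutation test, which runs through all 286 ways of picking 3 of 13 embryos, gave a two-sided p of 0.0664, where the smallest possible is 0.0035. Without xHomo embryo 3 the Trf difference was -0.45 (limma adjusted p = 0.285), on leaving out single embryos it ran from -0.73 to -0.42, and after TPM rescaling it was -0.67. Over the embryos with Xist under 1 FPKM, 5 xHomo and 3 xHet, it was -0.31 (limma adjusted p = 0.348), and with limma's array weights, which let each library count by its own noise and under which 2779 genes passed, it was -0.41 (limma adjusted p = 0.0436).

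Ttr was at -0.36 (SE 0.31, limma adjusted p = 0.725) and Fgb at -0.18 (SE 0.27, limma adjusted p = 0.852). Apoa1 was at 0.25 (SE 0.24, limma adjusted p = 0.759) and Apoa2 at 0.23 (SE 0.27, limma adjusted p = 0.807). Fgg, Rbp4 and Afp were at 0.16, 0.11 and 0.02 (limma adjusted p = 0.840, 0.910 and 0.986). The 95% intervals were wide, from -0.80 to 0.85 for Afp and from -1.02 to 0.30 for Ttr, so these data do not show that the levels were alike. On leaving out single embryos, Ttr ran from -0.48 to -0.21 (without xHet embryo 1), Apoa1 from 0.09 (without xHet embryo 2) to 0.38, Apoa2 from 0.09 (without xHet embryo 3) to 0.41 (without xHet embryo 1), Rbp4 from 0.04 (without xHet embryo 1) to 0.25 (without xHomo embryo 3) and Fgb from -0.26 to -0.06 (without xHomo embryo 3). The Afp difference was 0.22 without xHomo embryo 3 and below 0 under all 3 rescalings tried, and the Fgb difference was 0.13 over the embryos with Xist under 1 FPKM.

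**Figure D2:**
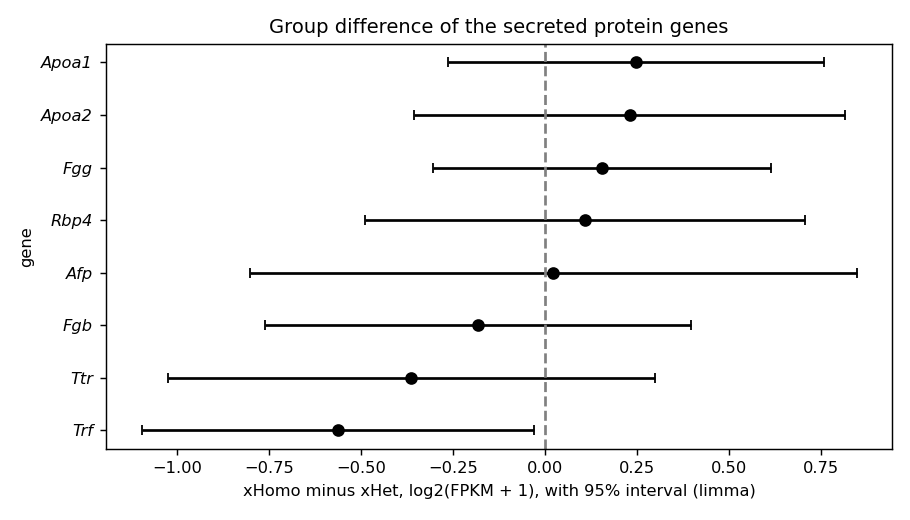
Difference between the xHomo and xHet means of log2(FPKM + 1) for the 8 genes past the filter, with 95% intervals from limma. Only the interval of Trf, -1.10 to -0.03, leaves out 0, and its adjusted p was 0.521.

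Taken embryo by embryo, the 9 genes covered a wide range among the xHomo embryos. Summed over the 9, xHomo embryo 3 had 20.6 FPKM and xHomo embryo 5 had 108.2 FPKM, with 53.4 to 73.8 FPKM in the other 8 xHomo embryos and 74.3, 59.9 and 56.9 FPKM in the xHet embryos. The median SD of log2(FPKM + 1) over the 8 genes past the filter was 0.49 among the 10 xHomo embryos, against 0.23 over all genes tested. Among the 3 xHet embryos it was 0.27, against 0.10 over all genes. Afp had the largest SD among xHomo embryos, 0.72, at the percentile 97.3 of all genes tested. Without xHomo embryo 3 the median SD was 0.33, against 0.18 over all genes, and that of Afp was 0.37. The SD of Ttr hardly moved, at 0.53 without and 0.56 with that embryo.

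Differences from the xHet mean of 1 log2 unit or more were found 6 times among 80 values of the 8 genes in xHomo embryos, against 2.89% of all values of tested genes in these embryos. xHomo embryo 3 held 5 of the 6, all lower: Afp, Ttr, Rbp4, Trf and Fgb at -1.76, -1.07, -1.17, -1.54 and -1.30 log2 units. In that embryo 9.71% of all genes tested were as far below. xHomo embryo 9 held the sixth, Ttr at -1.30, where 1.53% of all genes were as far below. Among the xHet embryos, each set against the mean of the other xHet embryos, 0 of 24 values were as far, against 1.11% of all values of tested genes. Without xHomo embryo 3 the number in xHomo embryos was 1. Of all genes tested, 10.2% were as far in either direction in xHomo embryo 3. In the other xHomo embryos this share was 1.45% (embryo 6) to 4.56% (embryo 9). The higher share among the 8 genes thus rested on embryo 3.

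**Figure D3:**
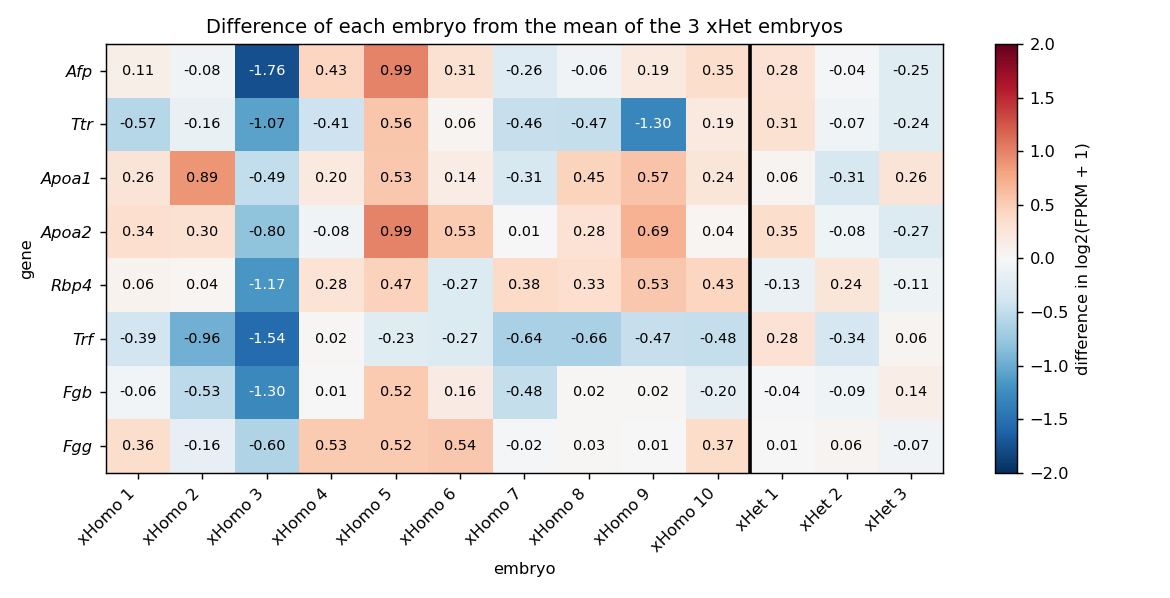
Difference of each embryo from the mean of the 3 xHet embryos in log2(FPKM + 1), genes in rows and embryos in columns, xHomo left of xHet. The column of xHomo embryo 3 is below 0 for all 8 genes (-0.49 to -1.76), and Ttr in xHomo embryo 9 (-1.30) stands apart from Apoa1, Apoa2 and Rbp4 in the same column (0.57, 0.69 and 0.53).

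In xHomo embryo 3 all 9 genes were below every xHet embryo, and 8 of 9 were at their lowest of all 13 embryos. At least 51.1% of all genes tested were also below every xHet embryo there, and the full share was not computed. Among all genes tested 51.1% had their lowest value in that embryo, as did 7 of the 8 genes here. Its values moved with transcript length: the median difference from the xHet mean was -0.02 over the genes with the shortest transcripts (up to 2501 bases), -0.23 over the middle class and -0.44 over the genes with the longest (above 4203 bases), in 3 classes of equal size. In the other 12 embryos these medians lay between -0.04 and 0.19. Of the 8 genes Afp, Ttr, Apoa1, Apoa2, Rbp4 and Fgg belong to the shortest class, and Trf and Fgb to the middle one. The 8 differences in that embryo, -0.49 to -1.76, were all below the medians of their classes. Lists of other secreted, matrix and receptor genes were low in the same embryo, as given further on, and whether its library is comparable with the others was not tested.

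xHomo embryo 5 was at the other end. It had 7 of the 9 genes above every xHet embryo and 0 below, and the highest level of all 13 embryos for Afp, Ttr, Apoa2 and Fgb. At least 17% of all genes tested were above every xHet embryo in it, and the full share was not computed. Afp and Apoa2 were each 0.99 log2 units above the xHet mean there, and the median over the 8 genes was 0.53. All genes tested were shifted upward in that library by a median of 0.17, and 17% of them had their highest value in it, against 4 of the 8 genes here. Whether that shift enters these values was not tested.

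xHomo embryo 9 was mixed. Apoa1 (3.12 FPKM), Apoa2 (14.09 FPKM) and Rbp4 (10.24 FPKM) were above all xHet embryos, while Ttr (1.44 FPKM), Trf (6.30 FPKM) and Apob (0.16 FPKM) were below them. Fgb and Fgg, at 3.64 and 1.03 FPKM, and Afp, at 30.94 FPKM, lay within the xHet range. In xHomo embryo 10 as well 3 genes were above the xHet range (Fgg, Rbp4 and Afp) and 3 below (Trf, Fgb and Apob). xHomo embryo 1 had 2 above and 3 below, and xHomo embryo 8 had 2 above and 2 below. The xHet range rests on 3 embryos, and the share of all genes tested outside it in each embryo was not computed.

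Whether the genes varied together was asked over the 10 xHomo embryos for the 36 pairs of the 9 genes. In 15 pairs, those with Afp or Rbp4, xHomo embryo 3 lay apart from the rest by more than 0.5 of the gene's range, so no pooled correlation was taken. In the other 21 pairs Pearson's r was positive, from 0.29 to 0.94, and 5 pairs passed a permutation test with adjustment over the 21. The share of positive or passing pairs among other genes was not computed. Since 51.1% of all genes tested were lowest in xHomo embryo 3, these counts do not set the 9 genes apart. Trf and Fgg gave r = 0.944 (permutation adjusted p = 0.00126) and Spearman's rho = 0.879 (permutation adjusted p = 0.0321), with r = 0.890 on leaving out the 2 embryos farthest from the Trf median. It was the one pair that passed with both measures. In xHomo embryos with Xist under 1 FPKM, Trf was 5.40 to 9.25 and Fgg 1.06 to 1.93 FPKM. In the other xHomo embryos Trf was 2.47 to 6.30 and Fgg 0.33 to 1.61 FPKM. Whether the correlation held within each of these sets was not tested. On leaving out single xHomo embryos, 0 to 4 pairs passed with Spearman's rho, of 10 to 36 pairs that could then be computed.

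Trf with Fgb gave r = 0.884, Apoa2 with Fgb r = 0.871 and Fgb with Fgg r = 0.864 (each permutation adjusted p = 0.0128), and Ttr with Apob r = 0.763 (permutation adjusted p = 0.0462). Their rho values were 0.717, 0.723, 0.742 and 0.758, each with a permutation adjusted p of 0.0960. On leaving out the 2 embryos farthest from the median of the first gene, r was 0.829, 0.414, 0.645 and 0.706 in the same order. The neighbours Fgb and Fgg were thus not the closest pair. Apob lay below the filter, at 0.05 to 0.46 FPKM in xHomo embryos, so its pair with Ttr is the least certain. Without xHomo embryo 3 Ttr with Apob gave r = 0.702 (permutation adjusted p = 0.197).

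Apart from Trf with Fgg, the pairs that passed did so only with xHomo embryo 3 included. Without it all 36 pairs could be computed, so adjustment ran over more pairs, r ran from -0.43 to 0.88, and 1 pair passed with Pearson's r and 0 with Spearman's rho. That pair was again Trf with Fgg (r = 0.884, permutation adjusted p = 0.0216; rho = 0.833, permutation adjusted p = 0.131). Pairs with Afp could then be read: Afp gave r = 0.829 with Fgb, 0.764 with Fgg and 0.687 with Trf (permutation adjusted p = 0.113, 0.113 and 0.197), and r = 0.190 with Rbp4 (permutation adjusted p = 0.941). Without xHomo embryo 5 the gap rule also left out the pairs with Fgb, so that 15 pairs could be computed, of which 1 passed. The xHet embryos, which took no part in these values, had Fgg at 0.92 to 1.11 FPKM over Trf levels of 6.97 to 11.26 FPKM.

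**Figure D4:**
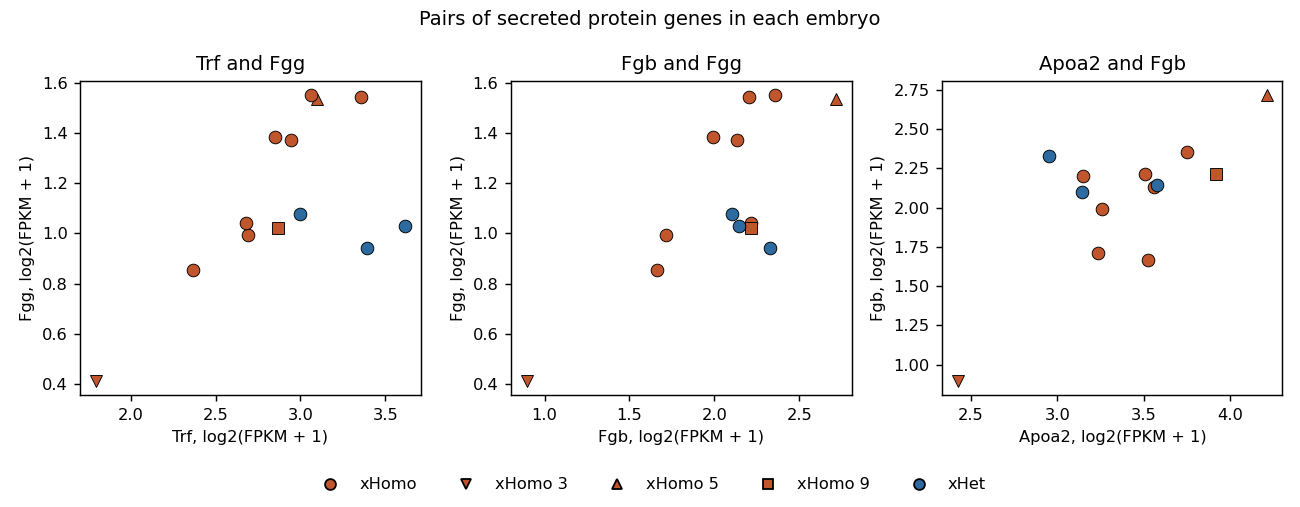
Log2(FPKM + 1) of 3 pairs of genes, 1 point per embryo, xHomo and xHet in different colours. xHomo embryo 3 (downward triangle) is at the lower left in each panel, xHomo embryo 5 is the upward triangle and xHomo embryo 9 the square. Fgg in the 3 xHet embryos lies between 0.92 and 1.11 FPKM while Trf lies between 6.97 and 11.26 FPKM.

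Genes next to these on the chromosome were low. Alb, which encodes serum albumin and lies beside Afp (chromosome 5, 90889914 to 90905629), ran in xHomo embryos from 0.70 FPKM (embryo 2) through a median of 1.59 FPKM to 3.39 FPKM (embryo 5), against 1.91, 1.64 and 2.26 FPKM in the xHet embryos (limma adjusted p = 0.883). Its highest xHomo value fell in the same embryo as that of Afp. Afm, on the other side of Afp, was at most 0.92 FPKM in any embryo. Near Apoa1 on chromosome 9, Apoa4 and Apoa5 were at most 0.09 and 0.26 FPKM, and Apoc3 was listed at 0 in all xHomo embryos and at 0.35 FPKM in xHet embryo 3 alone among xHet embryos.

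Other genes of the same tissues were taken from lists. Of 25 further secreted proteins of the visceral endoderm 9 were tested, 0 passed in either direction, and the median difference between the groups was -0.06. Apoe, a lipoprotein ligand made in many tissues, ran in xHomo embryos from 26.18 FPKM (embryo 3) through a median of 63.7 FPKM to 105.65 FPKM (embryo 9), against 52.46 to 58.69 FPKM in xHet embryos. Ambp, the precursor of a serum inhibitor and carrier, had 1.45 to 7.76 FPKM in xHomo and 4.29 to 7.82 FPKM in xHet embryos. Vtn, which encodes vitronectin, had 5.86 to 18.17 and 12.06 to 14.80 FPKM, and Itih2, an inhibitor heavy chain, 1.24 to 6.80 and 3.79 to 5.07 FPKM, in xHomo and xHet embryos. The lowest values of all 4 were in xHomo embryo 3, and 14 of the 25 stayed under 1 FPKM in every embryo.

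Several defining uptake and identity genes of the visceral endoderm were below 1 FPKM. Cubn and Amn, which form its receptor for protein uptake, were at most 0.22 and 0.54 FPKM in any embryo, and Ihh, its hedgehog ligand, at most 0.92 FPKM. These 3 genes, Soat2 and Hnf4a are named here after their values were seen. Of 14 such genes 13 were in the table, 8 of them under 1 FPKM in every embryo, 5 were tested and 0 passed. The level summed over the list was 27.1 to 37.9 FPKM in xHomo and 33.0 to 36.6 FPKM in xHet embryos, mostly from Dab2, Cited1 and Lrp2, which other embryonic tissues also express. Soat2, a cholesterol esterifying enzyme, stood at 0.87 to 1.67 FPKM in xHomo and 1.74 to 2.65 FPKM in xHet embryos, with an unadjusted limma p of 0.0030 and an adjusted p of 0.449; its groups did not overlap, as in 2.24% of tested genes. Cited1, a transcriptional co-regulator, went the other way, with 7.26 to 11.72 FPKM in xHomo and 6.65 to 8.04 FPKM in xHet embryos (limma p = 0.0156, adjusted p = 0.494), and 9 of 10 xHomo embryos were above all xHet embryos.

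Of 12 early liver bud genes 5 were tested and 0 passed, with a median difference of 0.15. Among them Tbx3 and Hhex, transcription factors of the liver bud and other sites, had 5.40 to 9.60 and 1.8 to 5.25 FPKM in xHomo embryos, against 6.37 to 7.14 and 2.09 to 2.48 FPKM in xHet embryos. Of 16 regulators of endoderm and liver genes 10 were tested and 0 passed, with 8 above and 2 below 0. Gata6 and Gata4 had the only unadjusted p values under 0.05 of the list, at 6.53 to 12.51 and 3.97 to 6.80 FPKM in xHomo and 5.74 to 6.74 and 3.78 to 3.94 FPKM in xHet embryos (limma adjusted p = 0.494 and 0.481). Both are also heart genes. Hnf4a, the nuclear receptor that drives liver secretory genes, was 0.08 to 0.29 FPKM in xHomo and 0.13 to 0.25 FPKM in xHet embryos.

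Some receptors and partners of the 9 proteins had higher FPKM than the genes of the proteins. Tfrc, the transferrin receptor, ran in xHomo embryos from 32.81 FPKM (embryo 3) through a median of 90.8 FPKM to 112.23 FPKM (embryo 5), against 105.91 to 118.42 FPKM in xHet embryos (limma adjusted p = 0.593). Stra6, the retinol uptake receptor that binds Rbp4, had 10.56 to 27.76 FPKM in xHomo and 22.0 to 26.5 FPKM in xHet embryos (limma adjusted p = 0.725). P4hb, a subunit of the complex that loads lipid onto Apob, had 150.17 to 384.7 FPKM in xHomo and 340.94 to 381.49 FPKM in xHet embryos, and Lrp1, a lipoprotein receptor, 5.88 to 25.24 and 19.88 to 22.32 FPKM. Of 17 such genes 16 were in the table, 15 were tested, 0 passed, and 14 of the 15 had their lowest value of all 13 embryos in xHomo embryo 3.

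By list, the median difference of xHomo embryo 3 from the xHet mean was -1.12 for the 8 secreted proteins tested, -1.06 for 9 further secreted proteins, -0.95 for 15 receptors and partners and -1.39 for 8 parietal endoderm genes, chiefly of basement membrane. It was -0.21 for 10 endoderm and liver regulators, -0.28 for 5 liver bud genes, -0.29 for 9 gut tube genes, -0.40 for 5 uptake and identity genes, -0.61 for 2 trophoblast and placenta genes, 0.14 for 7 primitive red cell genes and -0.27 for all genes tested. The lists were not matched for transcript length, with which the values of xHomo embryo 3 moved. In xHomo embryo 5 the median was 0.53 for the 8 secreted proteins, 0.51 for the 2 trophoblast and placenta genes, 0.26 for red cell genes, 0.25 for the further secreted proteins and 0.20 for liver bud genes. It was 0.09 for gut tube genes, 0.03 for regulators, 0.01 for parietal endoderm genes, 0.00 for receptors and partners and for the uptake and identity genes, and 0.17 for all genes tested.

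**Figure D5:**
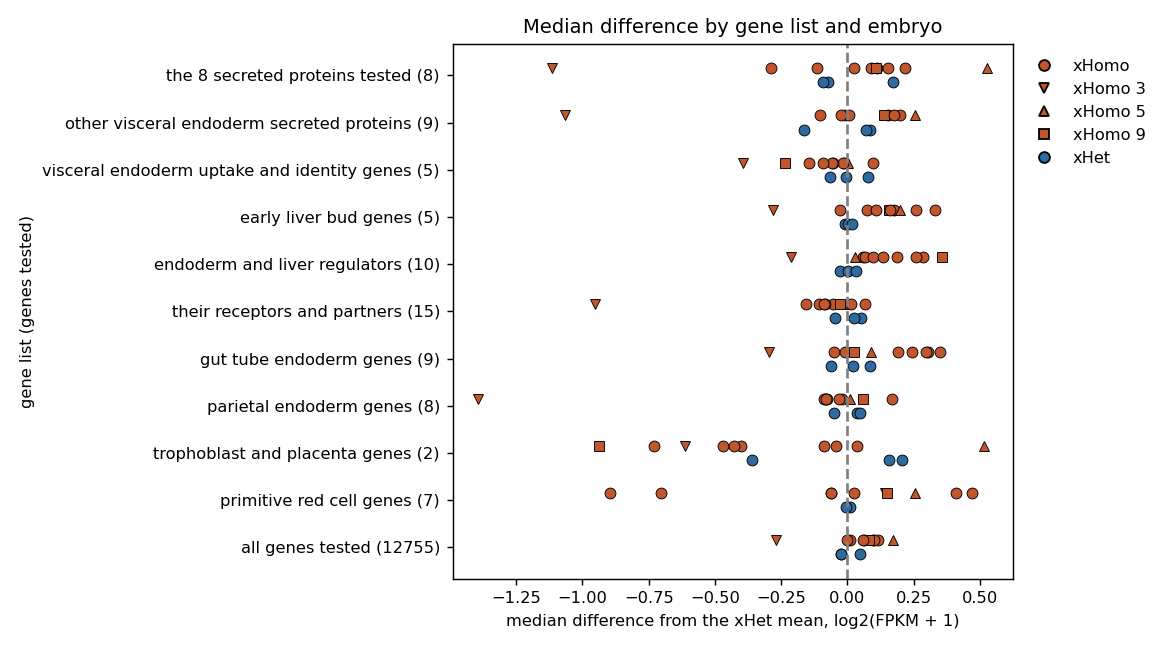
Median difference from the xHet mean in log2(FPKM + 1) for each gene list, 1 point per embryo, with the number of genes tested in brackets and xHomo embryos 3, 5 and 9 as downward triangle, upward triangle and square. xHomo embryo 3 lies at -1.12 for the secreted proteins, at -1.39 for parietal endoderm genes and at 0.14 for red cell genes.

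Lists for cells that a dissection could carry along were also read. Of 12 trophoblast and placenta genes Tpbpa and Ctsq were listed at 0 in all embryos, and the summed level was 5.55 to 14.0 FPKM in xHomo and 7.69 to 10.5 FPKM in xHet embryos, with the highest value in xHomo embryo 5 and most of it from Plac1 (3.84 to 9.59 and 6.06 to 7.26 FPKM). The 5 decidua genes summed to at most 0.39 FPKM in xHomo and 0 FPKM in xHet embryos. Of 9 parietal endoderm genes 8 were tested and of 10 gut tube genes 9, and 0 passed in either list. Sparc, the most abundant parietal endoderm gene, had 77.38 to 196.46 FPKM in xHomo and 163.76 to 182.34 FPKM in xHet embryos, and Krt8, a keratin of simple epithelia, 30.85 to 50.18 and 25.96 to 31.28 FPKM. The 7 primitive red cell genes summed to 5164 FPKM in xHomo embryo 4, where the 9 secreted proteins summed to 73.8 FPKM. Their highest sum was 15276 FPKM, in xHomo embryo 1, their sum in xHomo embryo 3 was 11941 FPKM, and xHet embryos had 10056 to 10190 FPKM. How far these cells enter the levels of the 9 genes was not tested.

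The genes whose pattern was most like the mean of the 9 over the 13 embryos were ranked by Spearman's rho among the tested genes, as a description. Arfgef2, an exchange factor of vesicle traffic, came first (rho 0.967, Pearson's r 0.937, and r 0.817 without xHomo embryos 3 and 5), followed by Itch, a ubiquitin ligase (rho 0.929, r 0.803), and Dhdds, an enzyme of dolichol synthesis (rho 0.923, r 0.929). The next 7 were 6720456H20Rik, Ankrd44, Arl6ip5, Dnmbp, Gm14308, Nvl and Rdh11, with rho from 0.907 to 0.917. All points share the 13 libraries and their scaling, and 12755 genes were searched. None of the listed visceral endoderm or liver genes was among the 10.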

How the data were processed

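Poly(A) RNA of 13 E9.5 embryos was sequenced from directional libraries, per the labels' protocols. The authors deposited FPKM values, with mm9 loci, in a single table. The submitters' processing notes name TopHat, Cufflinks and bcl2fastq 1.8.2; their settings and the annotation are not given in the sources here. FPKM scales with the other RNAs of a library and holds no counts, so depth is unknown and no counting interval is given.

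The genotype label gave the groups. Genes averaging at least 1 FPKM were tested on log2(FPKM + 1), which understates changes of low genes, with limma 3.58.1 in R 4.3.3 (trend, no covariate, two-sided, Benjamini-Hochberg over all genes tested, 0.05). The permutation tests of the pairs were two-sided with 100000 permutations; their adjustment runs over the pairs that could be computed, where all 36 had been planned. Python 3.11.15, numpy 2.4.6, pandas 2.3.3, scipy 1.17.1 and matplotlib 3.10.9 were used, and limma was also tested on simulated data with planted changes.

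The 9 genes and all lists were chosen with earlier results of these data known. Named beside the 9 were up to 4 genes per list with the highest mean, chromosomal neighbours, and the 10 genes most like the mean of the 9. A planned item among the regulators and motifs is not reported here. Promoter windows came from RefSeq (GRCm38.p6) and were trimmed to the 250 bases before the start, and transcript lengths came from GENCODE vM21, matched by symbol for 12614 of the genes tested. Alternatives changed the pseudocount, filter, scaling, covariates, weights, threshold and embryos used; the set with Xist under 1 FPKM and the pairs without single embryos were added after the data were seen.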

Additional observations from a re-analysis of the deposited data

Results flagged for a closer look

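Among the 10 xHomo embryos, 58 genes were examined with Dixon's test on log2(FPKM + 1), which chance alone passes in about 1 of 20 groups. It marked 23 genes, in each of which xHomo embryo 3 was the lowest and stood far from the rest, so that the flags share 1 library. Among the 9 secreted proteins these were Afp at 7.22 FPKM (next-lowest xHomo embryo 22.29 FPKM) and Rbp4 at 2.46 FPKM (next-lowest 5.45 FPKM). Among further genes of the visceral endoderm they were Ambp at 1.45, Itih2 at 1.24, Dab2 at 11.3 and Lrp2 at 1.53 FPKM. Among regulators, receptors and partners they were Nr2f2 at 30.16, P4hb at 150.17, Tfrc at 32.81, Stra6 at 10.56 and Lrp1 at 5.88 FPKM. Gut tube and basement membrane genes gave Cldn6 at 27.3, Epcam at 12.92, Sparc at 77.38, Col4a1 at 23.0, Col4a2 at 14.59 and Lamb1 at 15.33 FPKM. Of the genes most like the mean of the 9, Arfgef2 stood at 1.92, 6720456H20Rik at 2.68, Arl6ip5 at 21.39, Dnmbp at 2.17, Nvl at 17.19 and Rdh11 at 7.58 FPKM. These genes had been picked for their likeness to that mean, which was lowest in xHomo embryo 3. Their flags were therefore largely fixed by the choice, and the rate of 1 of 20 does not apply to them. The other 7 of the 9 secreted proteins were not marked, although 6 of them were also lowest in that embryo. Not every gene of the lists was among the 58. The share of all genes tested that would be marked was not computed, and 51.1% of them were lowest in xHomo embryo 3.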

How the results depend on the processing

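Over 192 combinations of a gene and an alternative, 177 kept direction and side of the threshold. These counts include the exact permutation test, which uses the same differences as the main fit. Direction could not change there, and 0 of all genes passed it. The number of the 9 genes passing limma was 0 under every alternative except array weights, where it was 1 (Trf), and 0 to 0 on leaving out single embryos. The Afp difference was -0.058 after TPM rescaling, -0.026 with median-of-ratios scaling, -0.017 with quantile normalization, and -0.10 to 0.22 on leaving out single embryos. The Fgb difference was 0.070 with Xist as a covariate and 0.13 over embryos with Xist under 1 FPKM. The median difference was -0.02 to 0.23 on leaving out single embryos. Differences of at least 1 log2 unit numbered 11 with a pseudocount of 0.1, 1 with a pseudocount of 5, 3 after quantile normalization, 1 at a 3-fold threshold and 1 to 7 on leaving out single embryos, where 1 is without xHomo embryo 3. The median SD was 0.28 with a pseudocount of 5 and 0.33 to 0.52 on leaving out single embryos. Pairs passing numbered 1 to 5 on leaving out single embryos; these counts are over unlike sets, since 10 pairs could be computed without xHomo embryo 2, 36 without embryo 3, 15 without embryo 5 and 21 otherwise. The cause was not tested. Replicate numbers did not pair the embryos: deviations of same-numbered embryos correlated at -0.065, -0.04 and -0.038. With the replicate block, which has a single xHet embryo per number, the median was -0.47 with Afp, Apoa2, Rbp4 and Fgg at -0.58, -0.054, -0.36 and -0.14, Trf, Fgb and Ttr at -0.96, -0.63 and -0.60 and Apoa1 at 0.22, and limma passed 1 of all genes. Over all genes 11 passed without the filter, 11 without xHomo embryo 3, 13 with Xist under 1 FPKM, 1 with Xist as a covariate and 0 by the exact permutation test, against 3. Only 3 xHet embryos and unknown depth limit precision.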
